A study of Rattus norvegicus with 34 samples.

Results

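The 106 genes described here were those whose lowest value among the heart arrays of rats given doxorubicin (DOX) lay above the highest value among the heart arrays of rats given saline. They were found among 6760 expressed genes with a symbol, of which 123 (1.82%) met this condition, and 17 of the 123 were left out by symbol either as members of families such as the heat shock, ribosomal and proteasome genes or as single genes (Sec61g, Mccc2, Ptgfr and Ier5). The condition used the heart values, so the heart values below are a description and no test of them is given. Female Sprague-Dawley rats were injected intraperitoneally once, with saline or with DOX at 12 mg/kg, and the left ventricle (LV) of the heart and the peripheral blood mononuclear cells (PBMC) were collected 48 h later. The RNA of each sample was amplified and hybridized to an Illumina RatRef-12 BeadChip, and 34 arrays were used, with 8 labelled saline and 9 labelled DOX in each tissue. All rats were of the same strain, and the saline rats received the injection without the drug.

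DOX is an anthracycline that inserts into DNA and blocks topoisomerase II, and its use against tumours is limited by damage to the heart. Cardiac muscle depends on its mitochondria, and DOX is known to accumulate there and to give rise to reactive oxygen species. DOX also disturbs transcription, and whether this had a part in the levels below was not tested. The 106 genes had no function in common by their choice and are ordered below by the roles of their proteins.

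Levels are log2 intensities above the median of the probes not expressed on the same array, so that 0 is background and a difference of 1 is 2-fold. Over the 6760 genes, the median difference between DOX and saline hearts was -0.94, and 4289 genes were lower on every DOX array. The median of all genes was 1.32 to 1.79 on the saline hearts and 0.22 to 0.70 on the DOX hearts. The deposited values of the saline hearts held 22196 to 22417 distinct numbers per array and those of the DOX hearts 2826 to 4802, so that whatever produced the repeated values and the DOX treatment cannot be told apart. Correlations over the tested genes were at least 0.968 among the saline hearts, at least 0.847 among the DOX hearts and at most 0.803 between both groups. The hearts held the markers of cardiac muscle, with a summed level of 12 cardiomyocyte genes of 79.2 to 82.9 on saline and 40.6 to 57.5 on DOX arrays. The size of this decrease depended on the scaling. The median difference of the 12 genes was -2.45, and after quantile normalization it was -0.49, where that of all genes was -0.25. In the LV, a bulk tissue, fewer cells of a type and less RNA per cell cannot be told apart. Since the level of one probe cannot be set against that of another, only differences are compared between genes.

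The 106 genes had a median difference of 1.04 between DOX and saline hearts. The differences ranged from 0.21 for Cd96 to 3.39 for Pacsin3, with 56 genes over 2-fold, 13 of these over 4-fold, and 50 below 2-fold. All 56 were also past the thresholds of the limma fit (adjusted p under 0.05 and over 2-fold), which 1.36% of all genes passed in this direction, but nothing can be read from that count because the same arrays chose the genes. Most of the 106 were close to background without the drug. In 73 of them the saline mean did not exceed 0.309, the 95th percentile of the probes not expressed, whereas 105 were above the 95th percentile of the DOX arrays (0.308). Only 9 had a saline mean over 1. The replicates of the DOX group were more variable, with a median SD of 0.387 against 0.094 on saline, and the DOX SD was the larger one for 104 genes. Neither the SDs nor the counts at background were set beside those of all genes, so they are not read as particular to the 106.

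**Figure D1:**
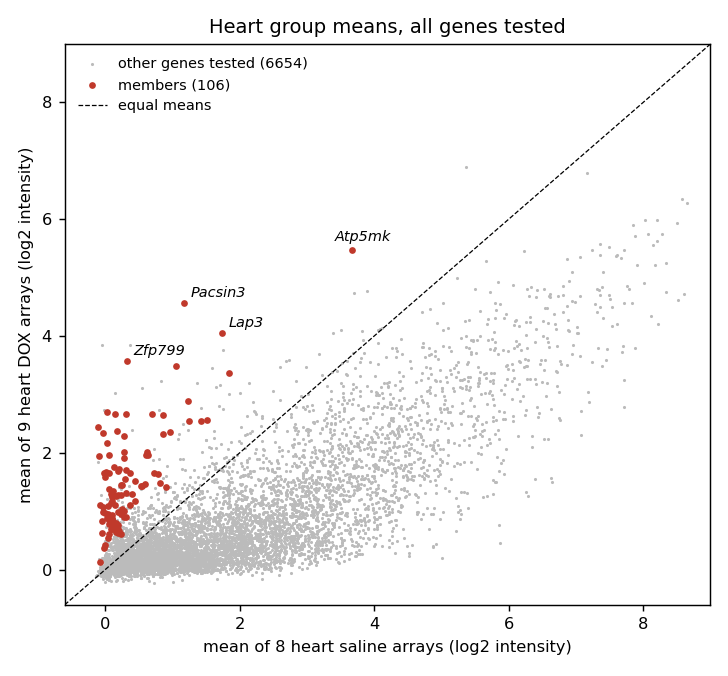
Each point is a gene, with its mean over the 8 saline hearts on the x axis and over the 9 DOX hearts on the y axis (log2 intensity), and the 106 genes are in red. They lie above the dashed line of equal means, mostly near 0 on the x axis, while most of the other tested genes lie below it.

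The gene with the largest difference and also the widest gap between the groups was Pacsin3, which encodes a membrane-bending protein of the syndapin family found in muscle. On the saline hearts its lowest, median and highest levels were 0.71, 1.18 and 1.63, and on the DOX hearts 4.29, 4.46 and 5.13. The difference of the means was 3.39 (SD 0.27 on saline and 0.26 on DOX), or 10.5-fold, and a gap of 2.66 separated the groups. The other probe of the same gene, with a lower mean over all arrays, went the other way, from 1.5 ± 0.095 on saline to 0.39 ± 0.20 on DOX hearts (SD, n = 8 and 9), so the direction for Pacsin3 holds for only one of its probes. Zfp799, a zinc finger gene, followed with saline levels of 0.07, 0.34 and 0.42 and DOX levels of 1.79, 3.55 and 4.92 (lowest, median and highest). Its difference was 3.25, and its DOX hearts were far more scattered than those of Pacsin3 (SD 0.97). The other 13 genes of the 15 with the largest differences lay between 1.91 and 2.68.

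**Figure D2:**
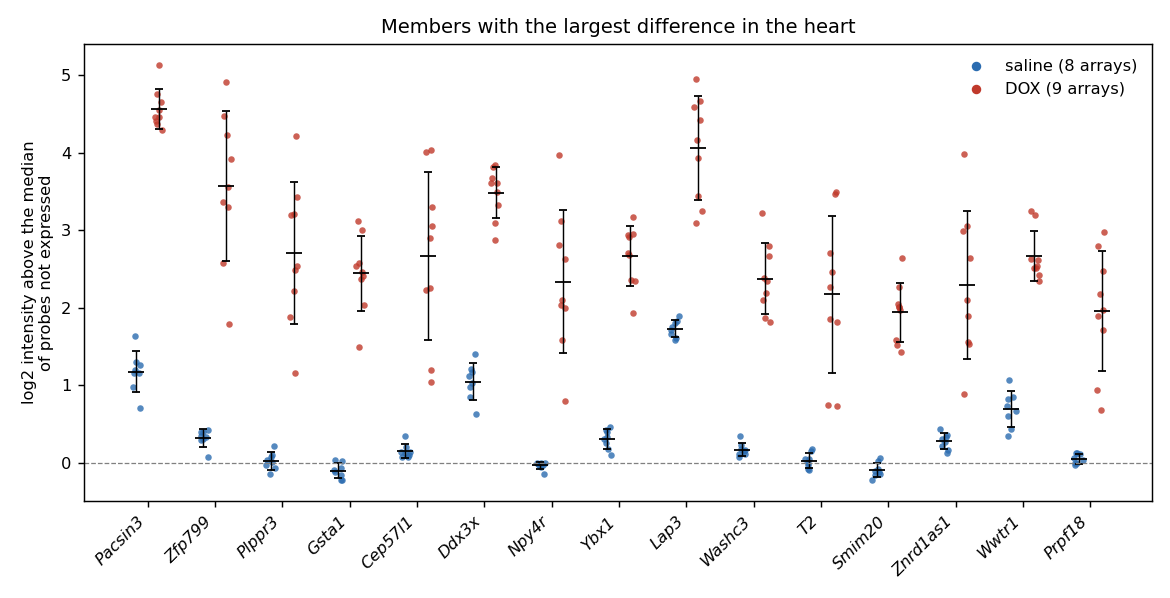
Each point is a heart array (log2 intensity above the median of probes not expressed), for the 15 genes with the largest difference, with the group mean and SD in black. No DOX point overlaps a saline point, and the DOX points of Pacsin3, Ddx3x and Wwtr1 are close together while those of Zfp799, Cep57l1 and T2 are spread.

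For 88 of the 106 genes the RefSeq promoter table (build GRCr8) held a window of 300 bases around the start of transcription. The windows of 3 genes are shown because they belong to genes of the mitochondrial, trafficking and transcription groups below and hold between 1 and 4 of the motifs searched. Capitals mark the CCAAT box (CCAAT), the GC box (GGGCGG), the TATA box (TATAAA) and the E-box (CACGTG) on either strand, and 2 GC boxes of Washc3 overlap by 1 base. The window of Washc3 lies at chr7:24508294-24508593 on the plus strand, that of Atp5mk at chr1:255921998-255922297 on the minus strand and that of Max at chr6:101395241-101395540 on the minus strand.
Washc3: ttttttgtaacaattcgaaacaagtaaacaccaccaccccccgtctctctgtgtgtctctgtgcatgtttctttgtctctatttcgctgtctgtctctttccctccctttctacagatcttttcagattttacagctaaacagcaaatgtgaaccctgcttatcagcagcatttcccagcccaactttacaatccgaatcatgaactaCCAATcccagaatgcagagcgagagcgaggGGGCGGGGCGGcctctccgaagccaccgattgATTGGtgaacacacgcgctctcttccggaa
Atp5mk: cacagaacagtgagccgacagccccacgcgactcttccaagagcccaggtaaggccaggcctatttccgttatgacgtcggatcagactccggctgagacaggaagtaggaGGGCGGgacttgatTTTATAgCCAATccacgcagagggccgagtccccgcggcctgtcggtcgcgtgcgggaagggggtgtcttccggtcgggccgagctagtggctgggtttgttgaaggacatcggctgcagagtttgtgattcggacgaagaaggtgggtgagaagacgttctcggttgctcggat
Max: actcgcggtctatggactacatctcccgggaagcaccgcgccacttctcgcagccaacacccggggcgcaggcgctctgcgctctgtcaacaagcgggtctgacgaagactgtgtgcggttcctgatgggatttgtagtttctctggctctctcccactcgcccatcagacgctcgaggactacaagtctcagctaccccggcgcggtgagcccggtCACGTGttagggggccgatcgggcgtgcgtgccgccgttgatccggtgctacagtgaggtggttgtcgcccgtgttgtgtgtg
A GC box was present in 60.2% of the 88 windows, in 61.7% of the 5647 windows of all tested genes and in 34.9% of all 27457 windows of the table. The CCAAT box was in 38.6% of the 88 and 38.6% of the tested genes, and in 37.7% of all windows. A TATA box was found in 10.2%, 7.47% and 14.3%, the E-box in 5.68%, 9.46% and 6.65%, and the cAMP response element (TGACGTCA) in 2.27%, 3.4% and 1.91%, respectively. The median GC content was 60.3% in the 88 windows and 60.7% in those of the tested genes. A motif is a match of letters and not a bound site.

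Mitochondrial proteins formed a group of 11, of which 9 were over 2-fold, with a median difference of 1.39. The mitochondrial genes Mccc2, Slc25a30, Cox6c and Hspe1 also met the condition but were left out by symbol. The size and the median of this group therefore depend on that choice. Smim20, an assembly factor of cytochrome oxidase also known as MITRAC7, was at background on the saline hearts (-0.22, -0.11 and 0.06 as the lowest, median and highest level) and at 1.43, 2.01 and 2.64 on the DOX hearts. A 2nd probe of Smim20 stayed at -0.03 ± 0.10 and -0.02 ± 0.06. Atp5mk, a small subunit of the ATP synthase, was well above background in both groups, unlike most of the members. Its levels were 2.93, 3.74 and 4.08 on saline and 4.97, 5.46 and 5.88 on DOX hearts, a difference of 1.81. The subunit gene Atp5mc3, which encodes a c-ring protein of the same enzyme, differed by 0.88. Coa5, another assembly factor of cytochrome oxidase, had a difference of 1.66, and its levels ranged from 0.93 to 1.49 on saline and from 1.97 to 3.56 on DOX hearts. Timm13, a chaperone of the intermembrane space, ranged from 1.66 to 2.16 and from 2.90 to 4.16, respectively, with a difference of 1.52. Higd2a, which takes part in the assembly of respiratory supercomplexes, differed by 1.46, and its 2nd probe by 1.71 with every DOX heart above every saline heart. It was the only one of 8 members with an additional probe for which both probes met the condition. The GTPase Mtg2 of the mitochondrial ribosome (1.39), the valine catabolic enzyme Aldh6a1 (1.23), the cristae subunit Micos10 (1.14), Aurkaip1 of the mitochondrial ribosome (1.13) and the carbonic anhydrase Car5a (0.60) made up the rest.

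Membrane trafficking was represented by 12 genes, 7 of them over 2-fold, with a median of 1.17. Besides Pacsin3, the largest difference was that of Washc3, a subunit of the WASH complex that drives actin assembly on endosomes. Its saline levels were 0.07, 0.16 and 0.35 and its DOX levels 1.82, 2.34 and 3.23, so that the highest saline heart was 1.47 below the lowest DOX heart. Lin7c (1.73), a scaffold of cell junctions, Tmed5 (1.63), a cargo receptor of the early secretory route, and the GTPases Rab3c (1.59) and Rab10 (1.29) were also over 2-fold. Rab10, which moves GLUT4 vesicles to the membrane in fat cells, was at 0.96, 1.27 and 1.43 on saline and at 1.58, 2.57 and 3.35 on DOX hearts. Vps29 of the retromer and the Rab escort protein Chm were below 2-fold at 0.58 and 0.57. The groups of Chm were separated by 0.0076 only.

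In the group of 17 genes for transcription and chromatin, 11 were over 2-fold and the median was 1.19. Wwtr1, which encodes the Hippo pathway coactivator TAZ, was at 0.35, 0.70 and 1.07 on saline and at 2.35, 2.54 and 3.25 on DOX hearts, with a difference of 1.98. The group held Hmgb1 (difference 1.67) and Hmgb3 (1.40), high mobility group genes whose proteins bend DNA. For Hmgb1 the saline hearts were at background (-0.10 to 0.09) and the DOX hearts between 1.33 and 2.03 (SD 0.26). Max, the dimerization partner of MYC, had saline levels of -0.08, 0.06 and 0.22 and DOX levels of 0.69, 1.48 and 2.12. The retinoid X receptor gene Rxra differed by 1.05 and the histone gene H4c14 by 1.21.

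Of 7 genes for RNA binding and splicing, 4 were over 2-fold, with a median of 1.004, the difference of the RNA-binding protein gene Syncrip. Ddx3x, an RNA helicase that acts in translation, was at 0.63, 1.07 and 1.41 on saline and at 2.87, 3.61 and 3.84 on DOX hearts, a difference of 2.43. Ybx1, a Y-box protein that binds RNA and DNA, was at 0.10, 0.33 and 0.46 and at 1.93, 2.71 and 3.17, respectively, with a gap of 1.47 between the groups. The other probe of Ybx1 lay at background in both groups, at 0.02 ± 0.04 and -0.11 ± 0.09. Prpf18, a factor of the late splicing step, differed by 1.91, while its DOX hearts were spread from 0.68 to 2.98.

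Signaling genes numbered 13, with 7 over 2-fold and a median of 1.11. The phosphatase-related membrane protein Plppr3 showed 2.68, with saline hearts at -0.15 to 0.21 and DOX hearts at 1.16 to 4.22. Pde3a, the cAMP phosphodiesterase of cardiac muscle that milrinone inhibits, was at 0.14, 0.19 and 0.33 on saline and at 0.46, 1.79 and 2.81 on DOX hearts. Its difference was 1.52 and the lowest DOX heart was 0.13 above the highest saline heart. Gna13, the alpha subunit of a G protein, differed by 1.61 with a gap of 0.0077. Ppp1r2, an inhibitor of protein phosphatase 1, differed by 1.28, and Tiam1, an exchange factor of Rac, by 1.11. Tiam1 was at 0.01, 0.16 and 0.35 on saline and at 0.43, 1.15 and 2.94 on DOX hearts. The growth factor gene Fgf1 (0.87) and the IGF binding protein gene Igfbp4 (0.63) remained below 2-fold.

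Enzymes and transporters counted 14, with 6 over 2-fold and a median of 0.84. Gsta1, a glutathione S-transferase that detoxifies electrophiles, was below or near 0 on all saline hearts (-0.22, -0.10 and 0.03) and at 1.49, 2.46 and 3.12 on DOX hearts. Its difference was 2.55, and it belongs to a family of similar sequences whose members a probe may not separate. The leucine aminopeptidase gene Lap3 was measured above background in both groups, at 1.58, 1.73 and 1.90 on saline and at 3.09, 4.17 and 4.95 on DOX hearts. Of 5 genes for protein turnover and folding, Ppic, a cyclophilin, differed by 1.80 and Dcun1d1, an activator of cullin neddylation, by 1.36. Lamc1, the laminin gamma 1 chain, was 1 of 4 genes of matrix and cytoskeleton, with levels from 1.30 to 1.73 on saline and from 1.89 to 3.38 on DOX hearts. The remaining 12 genes had other or unknown roles and a median of 0.95.

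The 11 genes of immune cells had a median of 0.76, and 1 of them was over 2-fold. For 10 of the 11 the saline mean did not exceed the 95th percentile of the probes not expressed. The same held for 73 of all 106 genes, with 10 of 13 in signaling, 10 of 12 with other roles and 4 of 11 mitochondrial genes. A difference that starts at background can understate the change, so the medians of the groups are not ranked. The immune gene over 2-fold was Fcgr1a, the high affinity IgG receptor of monocytes and macrophages. Its saline levels were 0.17, 0.26 and 0.63 and its DOX levels 0.79, 1.59 and 2.22. Il2ra, the alpha chain of the IL-2 receptor, differed by 0.98, and Skap1, an adaptor of the T cell receptor, by 0.84. Cd6 and Cd96, surface proteins of T cells, differed by 0.45 and 0.21. The levels of Cd96 on DOX hearts, 0.03, 0.07 and 0.39, were at background, and it is the member that did not pass the 95th percentile of the DOX arrays. The summed level of 11 leukocyte markers on these hearts was 6.5 to 8.9 on saline and 1.7 to 4.4 on DOX, with Ptprc at 0.27 ± 0.12 and 0.03 ± 0.06. Of the 11 markers, 0 were past the thresholds upward and 2 downward, against 1.36% and 48.2% of all genes. The decrease depended on the scaling. After quantile normalization 0 markers were called in either direction, their median was -0.18 (all genes -0.25), and Cd74 turned from -0.86 to 0.82. Of 3 neutrophil genes tested, S100a8 and S100a9 were past the thresholds upward and Camp was at background in both groups, and the sum was 0.4 to 1.6 on saline and 2.3 to 5.8 on DOX. The part of these cells in the 11 differences was not tested.

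**Figure D3:**
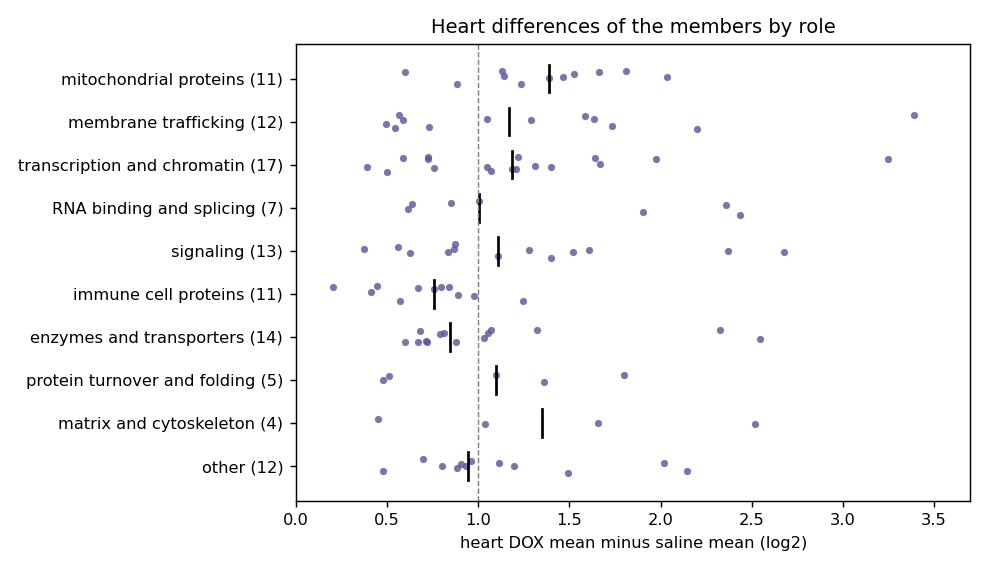
Each point is the difference of the heart means (log2) of 1 of the 106 genes, grouped by the role of its protein, with the median of the group as a bar and 2-fold as a dashed line. The medians range from 0.76 to 1.39, every group overlaps every other, and 73 of the 106 differences start from a saline mean at background.

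Across these groups, 10 of the 106 genes are best known from tissues other than heart, among them the sperm protamine gene Prm1, the pancreatic polypeptide receptor gene Npy4r, the adrenal hydroxylase gene Cyp21a1, the epithelial keratin gene Krt15, the ghrelin gene Ghrl, the odorant receptor gene Or52e19 and the vomeronasal receptor gene Vom2r31. On the saline hearts their means were -0.08 to 0.41, and 9 of the 10 did not exceed the 95th percentile of the probes not expressed. Their differences were 0.39 to 2.37. Npy4r showed the largest, with DOX hearts at 0.80, 2.10 and 3.97, and for Prm1 the DOX hearts were at 0.55, 0.92 and 1.78.

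The condition had a sharp edge within a continuous range of gaps. Just inside were Cyp21a1 (gap 0.0044), Chm (0.0076), Gna13 (0.0077), Cd96 (0.0081) and Cops7b (0.0087). Just outside were Star (-0.0001), Cnot6 (-0.0021), Golm2 (-0.0033), rnf141 (-0.0039) and Polr3f (-0.0059). Cnot6, a deadenylase subunit, had a difference of 0.94, larger than that of many members, and Star, which carries cholesterol into mitochondria, one of 0.25. Without the array DOX 9, 154 genes would meet the condition, and without DOX 6 there would be 129, since DOX 9 gave the lowest DOX level for 48 members and DOX 6 for 27. The highest DOX level came most often from DOX 3 (25 members) and DOX 2 (24 members). The median over the 106 genes was 0.95 on DOX 9 and 1.76 on DOX 3, against 0.15 to 0.23 on the saline hearts. All 106 genes remained when the arrays were quantile normalized, which moved the median of all genes by 0.69 to -0.25 and raised the number meeting the condition to 614. All 106 differences were positive under this scaling also, with a median of 1.91, whereas genes called upward made up 29.6% of all calls in place of 2.75%.

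**Figure D4:**
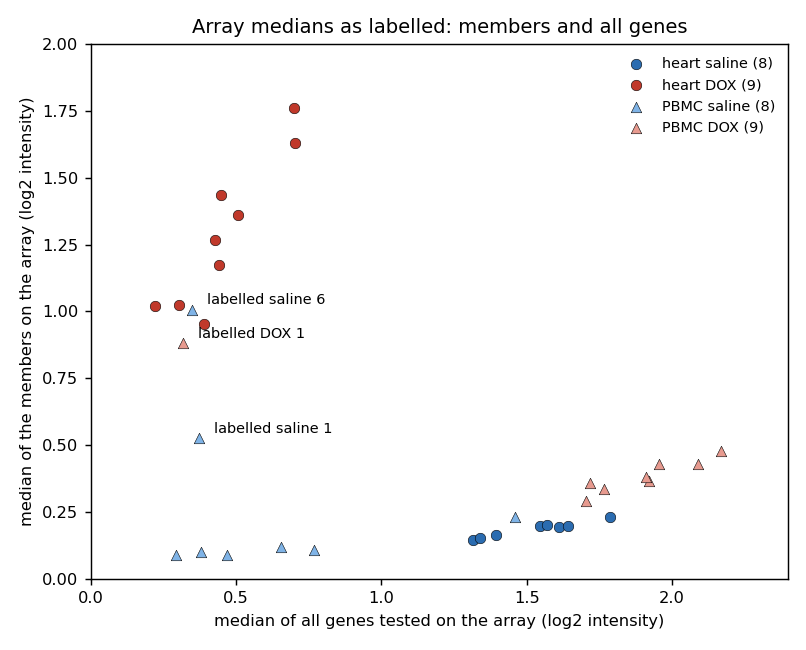
Each symbol is an array as labelled, with the median over all 6760 genes on the x axis and the median over the 106 genes on the y axis (log2 intensity). The DOX hearts are high on the y axis and low on the x axis, and the PBMC arrays labelled saline 6 and DOX 1 reach 1.01 and 0.88 on the y axis.

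The genes were spread over the genome. Of the 105 with a position in the RefSeq gene table, 12 (11.4%) were on chromosome 10 and 9 (8.57%) on chromosome 1, where 8.68% and 12.4% of the tested genes are placed. Chromosomes 2, 4 and 14 held 8 (7.62%) each, against 7.05%, 6.25% and 3.39% of the tested genes. The closest pairs were Rnf113a2 and Aldh6a1 on chromosome 6, which are 13017 bp apart, and H4c14 and Fcgr1a on chromosome 2, 19078 bp apart. Pacsin3 lies at chr3:97683054-97691619 and Wwtr1 at chr2:143801181-143916941 (GRCr8).

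Lists of genes related to the members by pathway were counted in the heart, where the limma fit called 48.2% of all genes lower and 1.36% higher. After quantile normalization these shares were 17.8% and 7.5%. Of 25 genes of endocytosis and membrane bending, 2 were called higher, which are the members Pacsin3 and Washc3, and 12 lower. Among the latter were Pacsin2 (1.91 ± 0.12 on saline and 0.56 ± 0.37 on DOX, adjusted p = 1.36e-08) and the muscle caveolin Cav3 (2.39 ± 0.27 and 0.11 ± 0.14, adjusted p = 1.43e-13). Of 18 genes of protein phosphatase 1, Ppp1r2 was called higher and 12 were called lower, including the catalytic subunit Ppp1ca (4.27 ± 0.28 and 1.18 ± 0.54, adjusted p = 3.31e-11). The medians of these lists were -0.85 and -1.33, against -0.94 for all genes, and after quantile normalization -0.16 and -0.60, against -0.25. Under that scaling 5 and 2 genes of these lists were called higher and 7 and 5 lower. The differences were then -0.47 for Pacsin2, which is below 2-fold, -1.70 for Cav3 and -1.63 for Ppp1ca. These lists are given as counts beside the shares of all genes, and nothing particular to them is read from the counts.

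In other lists, without a member, the called genes were 0 higher and 13 lower of 20 SNARE genes, 1 higher and 18 lower of 23 actin regulators, 0 higher and 7 lower of 12 SWI/SNF subunits, and 0 higher and 8 lower of 16 deadenylation genes. There were 0 higher and 10 lower of 14 complement genes, 0 higher and 3 lower of 10 cyclins and their inhibitors, and 1 higher and 8 lower of 12 sphingolipid genes. For the receptors coupled to G proteins the counts were 1 and 4 of 10, for the CREB/ATF and C/EBP factors 1 and 6 of 14 and for the aldo-keto reductases 1 and 3 of 8. The genes called higher were Cald1, Cert1, Ptgfr, Atf5 and Akr1c12. After quantile normalization the higher and lower calls were 3 and 3 for SNARE, 2 and 4 for actin, 3 and 3 for SWI/SNF and 3 and 3 for deadenylation genes. They were 0 and 2 for complement, 1 and 0 for cyclin and 1 and 3 for sphingolipid genes, 2 and 1 for the receptors, 1 and 3 for the CREB/ATF and C/EBP factors and 2 and 0 for the aldo-keto reductases.

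The PBMC arrays did not enter the condition except through the mean over all arrays, so the comparison in PBMC was tested. Cd96 passed that mean only through PBMC, with heart means of -0.08 on saline and 0.13 on DOX. For such a gene the PBMC call is not independent of the choice. The direction of the PBMC comparison is not settled. By the labels, DOX was compared with saline, whereas the estimates that the authors published fit another grouping. A least squares fit over 1998 genes placed the arrays labelled saline 1 to 8 and DOX 1 on the DOX side and those labelled DOX 2 to 9 on the control side, opposite to the label for 16 of 17 PBMC arrays and 0 of 17 heart arrays. The number of distinct deposited values split the PBMC arrays in the same way, with 2804 to 5746 on the 9 arrays of the DOX side and 22278 to 22419 on the 8 of the control side, so that in PBMC also the repeated values and the grouping cannot be told apart. Both groupings are given. The first signed values below therefore run against the published direction.

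By the labels, 11 of the 106 genes (10.4%) were called higher in PBMC from DOX rats (limma, adjusted p under 0.05 and over 2-fold), against 44.5% of all genes, and 0 were called lower, against 0.769%. For 66 of the 106 genes (62.3%) the mean over the 17 PBMC arrays was under 0.5, as it was for 22.2% of all genes. Genes this close to background in PBMC could hardly be called there, so nothing is read from the low share of members called. At an adjusted p under 0.05 without the fold threshold, 33 were higher and 0 lower, against 70.1% and 1.32% of all genes. The median log2 fold change was 0.14 over the 106 genes and 0.90 over all genes, and after quantile normalization -0.118 and 0.06. Of the 11, 6 were genes of immune cells. Nothing is read from this count, because genes high in PBMC pass the mean over all arrays more easily. Cd6 rose the most, by 2.28 ± 0.48 (SE, adjusted p = 0.000639), with saline arrays at 0.68, 1.24 and 3.43 and DOX arrays at 0.88, 4.16 and 4.53 (lowest, median and highest). Both groups overlapped, as the array labelled DOX 1 was among the saline arrays. Cd96 followed with 2.18 ± 0.40 (adjusted p = 0.000238), then Skap1 with 2.06 ± 0.40 (adjusted p = 0.000369) and Il2ra with 1.96 ± 0.43 (adjusted p = 0.000916). Il2ra ranged from -0.12 to 2.84 on saline arrays and from 2.02 to 4.01 on DOX arrays. Btk, a kinase of B cell receptor signaling, and the class I gene RT1-CE13, one of a family of similar genes that a probe may not separate, both rose by 1.15. RT1-CE13 was the member in which no DOX array overlapped a saline array, a separation that 3.34% of all genes showed, and 0 members were lower on every DOX array (0.0444% of all genes). Outside the immune group Zbtb6 (1.60), Faah (1.19), Tiam1 (1.17), Ppp1r2 (1.12) and Abcg3l2 (1.0) were called, and the call of Abcg3l2 was lost when any of 7 arrays was left out.

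Grouped as in the published estimates, 8 of the same 11 genes were called lower on the DOX side (7.55% of the 106, against 54.4% of all genes) and 0 higher (against 0.473%). Without the fold threshold 29 were lower and 5 higher, against 78.7% and 1.36% of all genes. The 5 were Krt15 (0.74, adjusted p = 0.047), Ybx1 (0.45, adjusted p = 0.0255), Nlk (0.45, adjusted p = 0.0437), Smim20 (0.21, adjusted p = 0.0401) and Pacsin3 (0.14, adjusted p = 0.0468). Their medians on the DOX side were only 0.01, 0.11, 0.16, 0.07 and 0.04, respectively. Krt15, Ybx1 and Nlk were highest on the arrays labelled saline 1, saline 6 and DOX 1, and Smim20 on saline 6 and DOX 1. The median was -0.06 over the 106 genes and -1.12 over all genes. The sign of the former turned to 0.378 after quantile normalization (all genes -0.09) and to 0.038 with the values as deposited. Cd6 fell by 2.72 (SE 0.313, adjusted p = 5.6e-07), with control arrays at 3.85, 4.18 and 4.53 and DOX-side arrays at 0.68, 1.12 and 3.43. In this grouping no array overlapped for Cd6, Cd96, Zbtb6, Tiam1 and Bicdl1, which were lower on every DOX-side array, as were 38.4% of all genes. The gene Bicdl1, which links dynein to Rab6 vesicles, did not reach 2-fold at -0.66 (adjusted p = 4.36e-06). Faah (-0.91), RT1-CE13 (-0.99) and Abcg3l2 (-0.77) were below 2-fold.

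Genes with the largest difference in the heart mostly did not pass in PBMC under either grouping. Pacsin3 was at background on all PBMC arrays (-0.26 to 0.08), with a change of -0.11 (adjusted p = 0.165) by the labels and 0.14 (adjusted p = 0.0468) by the published grouping. The fold change of Zfp799 was -0.02 (adjusted p = 0.983) and 0.85 (adjusted p = 0.287), that of Ddx3x 0.66 (adjusted p = 0.284) and -0.06 (adjusted p = 0.921), and that of Wwtr1 0.02 (adjusted p = 0.924) and 0.14 (adjusted p = 0.478). Zfp799 and Ddx3x were not low on all PBMC arrays. On those labelled saline 1, saline 6 and DOX 1, Zfp799 was at 4.022, 4.329 and 4.585 and Ddx3x at 2.785, 3.855 and 3.908. Their medians over the 15 PBMC arrays other than saline 6 and DOX 1 were 0.54 and 1.08. The 11 mitochondrial genes had 0 calls in either grouping. Of all genes, 44.5% were called higher by the labels and 54.4% lower on the DOX side of the published grouping. Nothing is read from the 0 calls, since some of the 11, such as Smim20 and Aldh6a1, were close to background in PBMC. After quantile normalization Atp5mk, Coa5 and Timm13 were called higher on the DOX side of the published grouping. Under this scaling 0 members were called higher by the labels and 3 lower (Dcun1d1, Rab10 and Lgals5), against 5.62% and 4.33% of all genes. By the published grouping 9 were called higher and only Cd96 lower, against 4.04% and 8.7% of all genes, and the other 6 of the 9 were Lap3, Dcun1d1, Rab10, Fcgr1a, Vom2r31 and Ncf4.

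The genes called in PBMC also had smaller fold changes after quantile normalization. By the labels that of Cd96 went from 2.18 to 0.99, that of Tiam1 from 1.17 to 0.23 and that of Faah from 1.19 to 0.13, while Abcg3l2 (-0.16) and Btk (-0.20) changed sign. By the published grouping that of Cd96 went from -2.52 to -1.12, that of Tiam1 from -1.28 to -0.11 and that of Il2ra from -1.45 to -0.02, and Btk turned to 0.04.

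**Figure D5:**
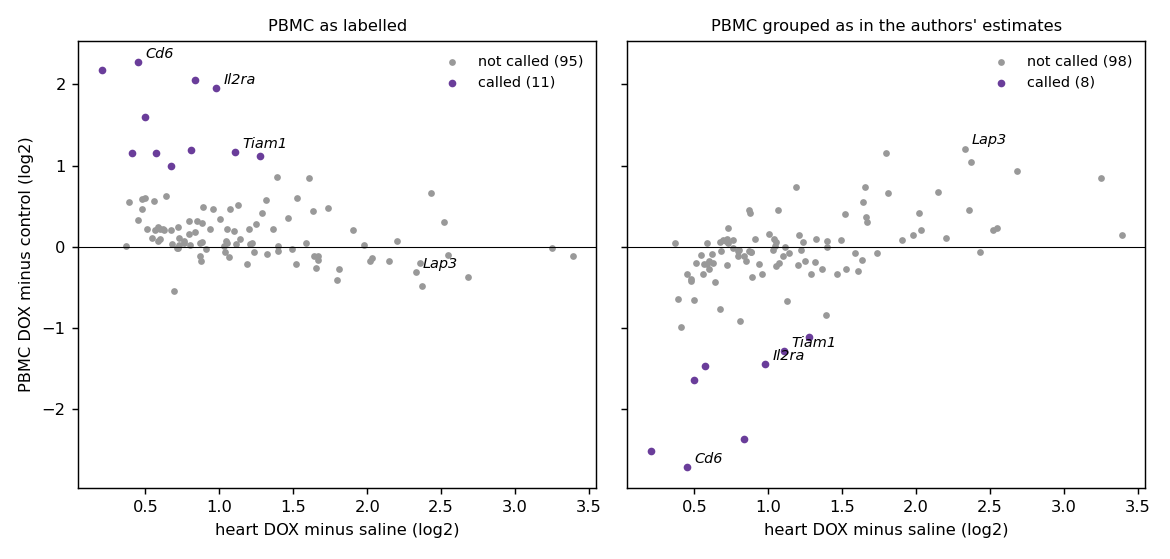
Each point is 1 of the 106 genes, with its difference in the heart on the x axis and its fold change in PBMC on the y axis (both log2), as labelled on the left and grouped as in the published estimates on the right. The called genes (purple) lie above 0 on the left and below 0 on the right, at heart differences of up to 1.28.

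A pair of PBMC arrays stood apart for these genes, those labelled saline 6 and DOX 1, which were chosen after their values were seen. Both lay above all 15 other PBMC arrays for 43 of the 106 genes (40.6%) and for 159 of the 6760 tested genes (2.35%), which is a description of these arrays and not a test. The correlation between them was 0.929, and with the other arrays of the DOX side it was 0.590 to 0.837. Lap3 was at 4.94 and 5.15 on this pair and at a median of 0.67 on the other 15, of which the highest was at 3.90. Atp5mk was at 3.64 and 2.85, with the other arrays not above 1.64, and Gna13 at 3.58 and 3.53, with the other arrays not above 1.95. The median over the 106 genes was 1.01 on the array labelled saline 6 and 0.88 on that labelled DOX 1, and the next was saline 1 with 0.53. The 12 cardiomyocyte markers summed to 0.1 and 0.3 on the pair, as low as on the other PBMC arrays (-0.3 to 3.0) and far from the hearts (40.6 and above). The leukocyte markers summed to 20.8 and 20.1, below the 26.0 to 57.0 of the other 15 arrays. The red cell markers (17.5 and 19.3 against 23.1 to 40.0), the platelet markers (12.5 and 10.9 against 21.4 to 30.4) and the endothelial markers (2.9 and 1.4 against 3.3 to 8.9) were also below all other arrays, and the neutrophil markers (11.4 and 10.9) were within their range (0.6 to 12.4). The part of RNA quality and of these cells in the levels was not tested. Without the pair, 12 of the 106 genes were called higher by the labels and 0 lower, and 12 lower and 0 higher by the published grouping, where 50.5% of all genes were called higher and lower, respectively. The median over the 106 genes was then 0.168 by the labels and -0.168 by the published grouping, which are the same groups of 7 and 8 arrays with the sign turned.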

How the data were processed

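The deposited log2 intensities of 22523 probes on 34 arrays were made by the authors, who exported intensities from GenomeStudio without background subtraction and, per their methods, subtracted the median of the probes not expressed on each array. The deposited columns instead have a median of 0 over all 22523 probes on every array. Deposited tables of raw intensity (34 columns of values) carry numbers that match no label and were not used, so no detection p-values entered. How repeat arrays of some rats entered the columns is not given in the sources used here. Platform annotation paired 13793 probes with 1 symbol, 8730 with none and 0 with several, and 105 of the 106 genes were found in the RefSeq gene table. A gene was represented by its probe with the highest mean over the 34 arrays, and it was expressed if that mean exceeded 0.1524, which left 6760 of 13337 genes. From each array, the median of its 13137 probes under this mean was subtracted. Groups were compared with limma 3.58.1 (lmFit and eBayes, group means) in R 4.3.3, with Benjamini-Hochberg adjustment over all 6760 genes. The arrays of a group are from separate rats. The fit was tested on simulated data. Python 3.11.15 with pandas 2.3.3, numpy 2.4.6 and matplotlib 3.10.9 made the tables and figures.

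The published estimates were used only to find the PBMC grouping, and no value of them is given. The genes, lists, rules and tests were chosen with earlier results of these data known. The genes named are the 15 with the largest heart difference, the 5 widest and the 5 narrowest gaps, the 5 just outside, those called in PBMC and in a list, and others by role. The role groups, the genes of other tissues, the motifs, the promoters shown and some members named for their role were chosen after the values were seen. Alternatives were quantile normalization, values as deposited, the filters, the mean of all probes, array weights, a replicate block and leaving out each array. The number of arrays and the signal over background limit the precision. One list of related genes is not reported here.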

Additional observations from a re-analysis of the deposited data

Results flagged for a closer look

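Single arrays far from the others of their group were looked for in 72 groups of values, of which chance gives about 1 in 20, and 5 were found. Zfp799 was at 0.07 on the heart array saline 7 (next 0.29), and Npy4r at -0.14 on saline 1 (next -0.06). Cyp21a1 was at 0.27 on saline 2 (next 0.12), which set its narrow gap to the DOX hearts, and Higd2a at 3.20 on DOX 8 (next 2.46). The median over the 106 genes was 0.88 on the PBMC array labelled DOX 1 (next 0.48).

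When PBMC are grouped as in the published estimates, 5 genes that were higher on every DOX heart were lower on every DOX-side PBMC array. The differences in PBMC were -1.28 for Tiam1, -1.64 for Zbtb6, -0.66 for Bicdl1, -2.72 for Cd6 and -2.52 for Cd96. The difference between the tissues was not tested.

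Among 2492 expressed probes without a symbol, which entered no comparison above, 349 (14%) were higher on every DOX heart. Of the 6760 genes with a symbol, 123 (1.82%) met the same condition. Most of what was higher on every DOX heart was therefore probes without a symbol, which the genes described above leave out. Why the shares differ was not tested.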

How the results depend on the processing

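The number of genes meeting the condition was 614 after quantile normalization, 213 without the filter on low values and 21 among genes with a mean above 1. The median heart difference of the 106 genes was 1.91 under quantile normalization and that of the 21 genes with the higher mean 1.39, and 101 and 15 of them were called in the heart. In PBMC by the labels, members called higher were 0 and 5, those called lower 3 under quantile normalization, and the median log2 fold change was -0.118 and 0.405. Without a fold threshold, which was added after seeing the data, 33 members were higher by the labels, and 5 were higher and 29 lower by the published grouping. By the published grouping, 9 were called higher under quantile normalization and 1 and 4 lower under the 2 settings, and the median turned to 0.378 under quantile normalization and 0.038 as deposited. The cause was not tested, apart from the higher mean, which tests fewer genes (21 of the 106).

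Leaving out 1 array cannot remove a member, since each still meets the condition. It gave 106 to 154 genes by the condition, medians of 0.992 to 1.093 and 51 to 58 members called in the heart. By the labels it gave 10 to 13 called higher, 0 lower and medians of 0.085 to 0.215, and by the published grouping 0 to 1 higher, 8 to 10 lower and medians of -0.092 to -0.034. The 1 gene called higher came without saline 4. The small PBMC medians moved by over 1.5 times: by the labels to 0.208 without saline 1, 0.215 without saline 6 and 0.085 without DOX 1, and by the published grouping to -0.092 without saline 6 and to between -0.037 and -0.034 without saline 2, 7 or 8.

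Same-numbered saline and DOX arrays are of different rats. Their deviations correlated at -0.143 to 0.146 in the heart (1 of 8 pairs over 0.1) and -0.417 to 0.78 in PBMC (5 of 8). A fit with the replicate number as a block called 57 members in the heart and, in PBMC by the labels, 11 higher and 0 lower, with a median of 0.147.

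Of 726 alternative values of the heart difference of 34 named members, 690 moved by less than the spread and 36 by more. Of the 36, 34 came with quantile normalization and 2 with the mean of probes. The sign changed in 0, but the condition fixes it whenever an array is left out, so nothing is read from this count. Signal over background limits the values, since 73 of the 106 genes were at background on saline hearts.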
